A study of Homo sapiens with 4 samples.

Results

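The genes of insulin and insulin-like growth factor (IGF) receptor signalling described here are IRS1, IRS2, INSR, IGF1R, PIK3R1, FOXO1, FOXO3 and the long non-coding RNA AC010735.2, whose start lies beside that of IRS1. They are 8 of the 60048 genes in the deposited table, found by gene symbol, and all 8 were among the 39358 genes kept for the fit by a minimum signal. The members were chosen by their values in the comparison of auxin with control described here, so their changes are given as a description: no p is printed for them, and nothing is read from how many passed a threshold.

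Insulin and the IGFs bind receptor tyrosine kinases at the cell surface, among them the products of INSR and IGF1R. The activated receptors phosphorylate insulin receptor substrate proteins, of which IRS1 and IRS2 are the widely expressed ones, and these dock the regulatory subunit of phosphoinositide 3-kinase (PI3K), encoded by PIK3R1. PI3K activates the kinase AKT, which keeps FOXO transcription factors out of the nucleus. FOXO factors in turn activate genes that include IRS2 and INSR, and colorectal carcinoma cells respond to insulin and IGFs through the same pathway.

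EU-seq was used to measure newly made RNA: cells take up 5-ethynyl uridine (EU), and RNA made during the labelling is captured and sequenced. All 4 libraries came from HCT116, a human colorectal carcinoma line, of genotype RAD21-mAC, in which the cohesin subunit RAD21 carries a tag that leads to its degradation when auxin is present. The 2 control libraries came from cells given DMSO, and the 2 auxin libraries from cells kept 3 h in the auxin indole-3-acetic acid at 0.5 mM. EU was given at 0.5 mM for 20 min in both groups. The controls thus carry the tag too, and with no untagged cells among these samples, loss of RAD21 and exposure to auxin cannot be told apart. The labels do not say whether the replicates came from separate cultures or whether the line is a single clone, so the spread between libraries may be technical.

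Values are a scaled signal per gene over its whole span, introns included, which were brought to a common level across libraries. The deposited values summed to between 61135244 and 93113007 per library, and the number of reads behind them is unknown. The signal of RAD21, whose protein rather than whose RNA is the target, was 5200 and 7128 in control and 5916 and 6238 in auxin, so it is no check on the depletion. All 8 epithelial markers were measured in every library, their signal summed to between 49157 and 53454, and 0 of 8 were called by limma, with 2 at an unadjusted p under 0.05, CDH1 and KRT8. That sum covers genes on both sides: CDH1 had 11158 and 11103 in control and 16172 and 16487 in auxin (log2 fold change 0.55, adjusted p = 0.0635 in limma), while KRT8 had 21833 and 24793 in control and 19068 and 19908 in auxin (-0.26, adjusted p = 0.461). EPCAM, KRT18, VIL1 and KRT20 also had both auxin libraries below both controls, at -0.29, -0.18, -0.18 and -0.39, while CDX1 and CDX2 overlapped. Of all genes tested, 19.6% had both auxin libraries below both controls. The sums were 85.9 to 94.1 over 4 leukocyte markers, with CD3E under 10. Over 4 endothelial markers they were 607 and 670 in control and 704 and 832 in auxin. Over 4 fibroblast markers, with COL1A2 and LUM under 10, they were 603 and 752 in control and 923 and 1022 in auxin. Most of that was COL1A1, at 582 and 725 in control and 897 and 994 in auxin, while DCN overlapped. Both of these sums were higher in both auxin libraries, with 0 of the genes tested called by limma and 1, COL1A1, at an unadjusted p under 0.05. Of the endothelial markers, VWF, PECAM1 and CDH5 had both auxin libraries above both controls, and KDR had both below. Over all genes tested, 18.6% had both above. The part of these markers in the results was not tested.

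Both insulin receptor substrate genes and AC010735.2 fell to between 22.5% and 25.8% of the control signal, while both receptors, PIK3R1 and FOXO3 had overlapping groups and FOXO1 lay between. In the fit over all genes, limma's threshold of an adjusted p under 0.05 was passed by 3 of the 8, IRS1, AC010735.2 and IRS2, which is no test of them, as they were selected on this contrast. Over all genes tested, 0.696% were called in either direction, 0.376% lower and 0.32% higher. Both auxin libraries were below both controls for 4 of the 8 genes, against 19.6% of all genes tested. Both auxin libraries were above both controls for 0 of the 8, against 18.6%. The median log2 fold change of the 8 was -0.49, and that of all genes tested was 0.0087. With a library left out, between 2 and 4 of the 8 were called. None of these counts is support, since the genes were chosen on these values. In bulk RNA, fewer cells with a transcript and less of it per cell cannot be told apart.

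**Figure D1:**
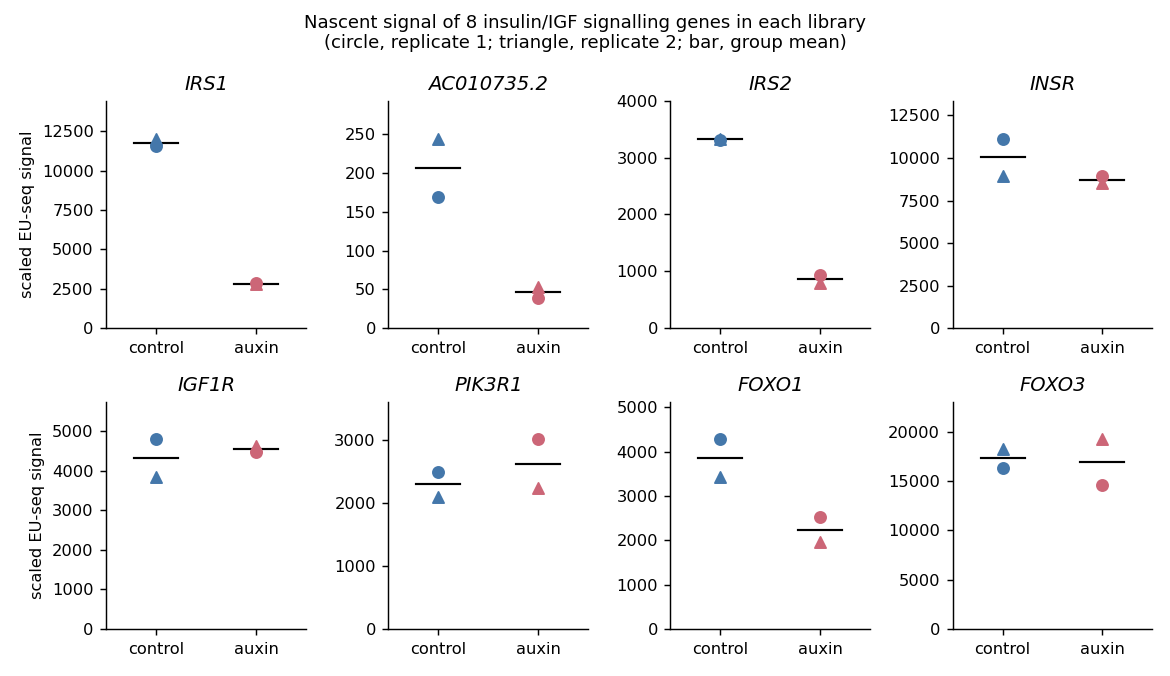
Scaled EU-seq signal (vertical axis, linear from 0, a separate scale for each gene) of the 8 genes in 2 control and 2 auxin libraries, with a bar at each group mean. IRS1, AC010735.2, IRS2 and FOXO1 have both auxin libraries below both controls, and the other 4 genes have groups that overlap.

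The regulatory sequence next to the starts of IRS1, IRS2 and FOXO1, the 3 protein-coding members with the lowest auxin signal relative to control, is shown first. Each run is the 250 bases before the gene's start, 5′ to 3′ on the gene's own strand, from RefSeq on GRCh38.p14, with motif matches in capitals. The windows are chr2:226799821-226800070 for IRS1, chr13:109786584-109786833 for IRS2 and chr13:40666642-40666891 for FOXO1, all on the minus strand.
IRS1: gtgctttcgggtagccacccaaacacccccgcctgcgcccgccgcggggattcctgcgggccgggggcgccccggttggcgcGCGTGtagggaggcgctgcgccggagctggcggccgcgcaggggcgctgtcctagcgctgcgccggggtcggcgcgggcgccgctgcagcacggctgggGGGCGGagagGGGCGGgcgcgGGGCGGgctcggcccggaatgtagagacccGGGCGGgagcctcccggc
IRS2: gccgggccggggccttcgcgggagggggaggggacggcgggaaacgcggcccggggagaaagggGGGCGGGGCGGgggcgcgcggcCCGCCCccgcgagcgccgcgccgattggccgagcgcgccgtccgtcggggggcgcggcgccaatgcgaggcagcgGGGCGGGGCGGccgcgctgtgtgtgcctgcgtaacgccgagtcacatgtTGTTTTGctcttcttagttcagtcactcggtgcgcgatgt
FOXO1: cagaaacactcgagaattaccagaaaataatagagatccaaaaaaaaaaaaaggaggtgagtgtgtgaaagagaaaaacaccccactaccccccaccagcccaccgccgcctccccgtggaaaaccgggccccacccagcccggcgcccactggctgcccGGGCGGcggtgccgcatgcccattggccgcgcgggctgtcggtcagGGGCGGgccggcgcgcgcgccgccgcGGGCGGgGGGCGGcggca
Searched on both strands were the GC box GGGCGG, the AHR core GCGTG, the insulin response core CAAAACA, the FOXO element GTAAACA and the TATA box TATAAA.

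The capitals in the IRS1 window are 4 GC boxes, 3 of them within 69 to 43 bases before the start and 1 at 18 to 13 bases, and 1 AHR core at 168 to 164 bases. Those in the IRS2 window are 5 GC boxes, which include 2 pairs sharing 1 base each, and 1 insulin response core on the opposite strand, at 40 to 34 bases before the start. FOXO1 has 4 GC boxes, all within 90 bases of the start. The windows are 80.8%, 76.4% and 67.2% G and C in the order printed, against a median of 58.0% over 35116 promoter windows. Members with overlapping groups are also above that median, at 78.4% for INSR, 81.2% for IGF1R, 81.6% for PIK3R1 and 80.4% for FOXO3.

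A GC box is present in 42.6% of those windows, an AHR core in 32.2%, a TATA box in 10.7%, an insulin response core in 4.3% and a FOXO element in 2.98%. RefSeq windows were matched for 7 of the 8 genes, AC010735.2 being the other one. Each of the 7 holds GC boxes, those with overlapping groups included: INSR has 4, IGF1R has 2, PIK3R1 has 5 and FOXO3 has 5. AHR cores are most frequent in FOXO3, with 5, and IGF1R, with 4. The letters of the FOXO element and of the TATA box occur in none of the 7 windows. These are matches of letters in a window, with no measurement of binding.

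The receptors come first in the pathway. INSR (ENSG00000171105, chr19:7112265-7294414, minus strand), the insulin receptor, had a signal of 11135 and 8928 in the control libraries and 8937 and 8515 in the auxin libraries. The groups overlapped by a narrow margin, since control replicate 2 was just below auxin replicate 1. Group means were 10031 ± 1561 (SD, n = 2) and 8726 ± 299 (SD, n = 2), and the log2 fold change was -0.19 with a 95% interval of -0.50 to 0.11.

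IGF1R (ENSG00000140443, chr15:98648539-98964530, plus strand), the IGF1 receptor and the longest member at 316.0 kb, had 4797 and 3844 in control and 4482 and 4629 in auxin. The auxin libraries lay between the controls, and the log2 fold change was 0.085 with a 95% interval of -0.25 to 0.42. Within each library, the signal per kb of INSR was 4.03 times that of IGF1R in both controls and 3.46 and 3.19 times in auxin replicates 1 and 2. The 2 receptors therefore stood closer together in both auxin libraries than in either control, by a ratio that was not itself tested.

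IRS1 (ENSG00000169047, chr2:226731312-226799820, minus strand) encodes the substrate that links both receptors to PI3K. Its signal was 11549 and 12039 in the control libraries and 2836 and 2819 in the auxin libraries. The replicates of each group lay close together and the groups were far apart: the means were 11794 ± 346 (SD, n = 2) and 2828 ± 11.8 (SD, n = 2), so auxin was at 24.0% of control. The log2 fold change was -2.06 ± 0.13 (SE), a signal 4.17-fold lower, and the 4 pairings of 1 auxin with 1 control library gave -2.09 to -2.03. Among the 15994 tested protein-coding genes with a mean signal of at least 50, IRS1 had the number 3 lowest log2 fold change.

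AC010735.2 (ENSG00000272622, chr2:226800146-226813741, plus strand) is transcribed away from IRS1, with 325 bases between the annotated starts, so the promoter window printed for IRS1 lies between them. Its signal was low, at 169 and 244 in control and 39.4 and 53.7 in auxin. No auxin library reached either control, although the controls differed from each other more than those of IRS1 did, with means of 207 ± 53.2 (SD, n = 2) and 46.5 ± 10.1 (SD, n = 2). The log2 fold change was -2.12 ± 0.31 (SE), a signal 4.45-fold lower, with single pairs from -2.60 to -1.64. Without control replicate 2 it was -1.86 and no longer passed the threshold.

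The lncRNA can be set against IRS1 within each library. Per kb, AC010735.2 stood at 7.39% and 10.2% of IRS1 in the control libraries and at 7.0% and 9.59% in the auxin libraries. The groups overlapped, so this proportion did not differ beyond the spread between libraries. A smaller lncRNA within its span, AC010735.1, had 0 to 9.13 and was not tested.

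IRS2 (ENSG00000185950, chr13:109752695-109786583, minus strand) encodes the other widely expressed substrate. Its signal was 3309 and 3334 in control and 931 and 786 in auxin. As for IRS1, the groups did not overlap and the controls were nearly equal, with means of 3321 ± 17.6 (SD, n = 2) and 858 ± 102 (SD, n = 2), or 25.8% of control. Its log2 fold change was -1.96 ± 0.16 (SE), a signal 3.87-fold lower, with single pairs from -2.08 to -1.83. It had the number 6 lowest log2 fold change among the same 15994 protein-coding genes.

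IRS1 and IRS2 lie on different chromosomes, and the proportion of one to the other had overlapping groups. Per kb, IRS2 was 57.9% and 56.0% of IRS1 in the controls and 66.3% and 56.4% in the auxin libraries, with auxin replicate 2 between the controls. The third substrate gene of the lists, IRS4, had 1.78 in auxin replicate 1 and 0 in the other 3 libraries and was not tested.

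The 5′ end of IRS2 is overlapped for 753 bases by AL162497.1, an lncRNA on the opposite strand. That lncRNA had 229 and 301 in control and 141 and 96.2 in auxin, a log2 fold change of -1.17 with an adjusted p of 0.118 in limma. The groups did not overlap, but the gene did not pass the threshold. Its signal per kb was 10.5% and 13.7% of that of IRS2 in control and 22.8% and 18.5% in auxin, so it was a larger share of IRS2 in both auxin libraries.

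**Figure D2:**
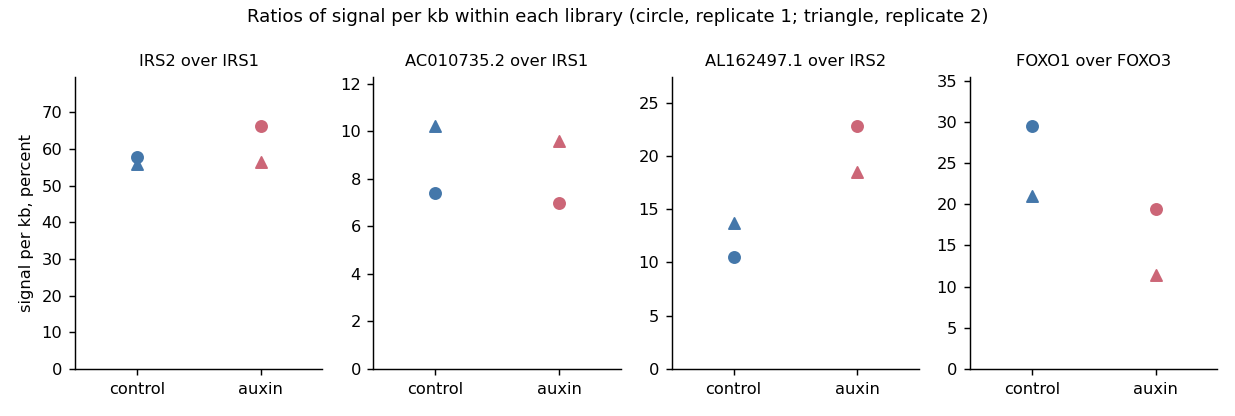
Ratio of signal per kb within each library, in percent (vertical axis, linear from 0), for 4 gene pairs in 2 control and 2 auxin libraries. The groups overlap for IRS2 over IRS1 and for AC010735.2 over IRS1, while AL162497.1 over IRS2 is higher and FOXO1 over FOXO3 lower in both auxin libraries.

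PIK3R1 (ENSG00000145675, chr5:68215756-68301821, plus strand), the PI3K regulatory subunit that binds the phosphorylated substrates, had 2492 and 2091 in control and 3002 and 2230 in auxin. The groups overlapped, with auxin replicate 2 between the controls. Its log2 fold change was 0.18 with a 95% interval of -0.23 to 0.59. Relative to the gene of the subunit's docking partner, the order of levels narrowed: per kb, IRS1 was 5.82 and 7.23 times PIK3R1 in control and 1.19 and 1.59 times in auxin.

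FOXO1 (ENSG00000150907, chr13:40555667-40666641, minus strand), a FOXO factor held in check by AKT, had 4274 and 3419 in control and 2518 and 1954 in auxin. Both auxin libraries were below both controls, with means of 3847 ± 605 (SD, n = 2) and 2236 ± 399 (SD, n = 2), or 58.1% of control. The log2 fold change was -0.79 ± 0.18 (SE), single pairs ran from -1.13 to -0.44, and the gene did not pass the threshold. It passed without auxin replicate 1, at -0.98.

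Part of the FOXO1 span is shared with another gene. AL133318.1, an lncRNA on the same strand, overlaps the 3′ part of FOXO1 for 55461 bases. Over its whole 141.2 kb it had 37.5% as much signal as FOXO1, and the signal within the overlap was not measured. Its own values were 1582 and 1386 in control and 904 and 696 in auxin, a log2 fold change of -0.90 with an adjusted p of 0.0847 in limma. It did not pass the threshold either, and per kb it stood at 28.0% to 31.9% of FOXO1 in all 4 libraries.

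FOXO3 (ENSG00000118689, chr6:108559835-108684774, plus strand), the related factor, had 16294 and 18287 in control and 14599 and 19211 in auxin. The auxin libraries lay on either side of both controls, and the log2 fold change was -0.044 with a 95% interval of -0.36 to 0.27. Per kb, FOXO1 was 29.5% and 21.0% of FOXO3 in control and 19.4% and 11.4% in auxin. The values for the pair did not overlap between groups, although each group's own replicates also differed.

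Whether the table's values are separated by strand bears on each overlap and was not settled, although the protocols name a directional kit. Among 678 processed pseudogenes on the opposite strand of a protein-coding gene, the signal per kb was a median 1.43 times that of the host. It was 1.56 times for 268 on the same strand. Within 2-fold of the host were 51.8% of those on the opposite strand and 48.5% of those on the same strand. On IGF1R, the opposite-strand lncRNA AC036108.1 overlaps 10382 bases. Over its whole 151.7 kb it had 21.4% as much signal as the receptor gene, with a log2 fold change of 0.19 (adjusted p = 0.846 in limma). How much signal each overlapping gene took from the other was not tested.

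**Figure D3:**
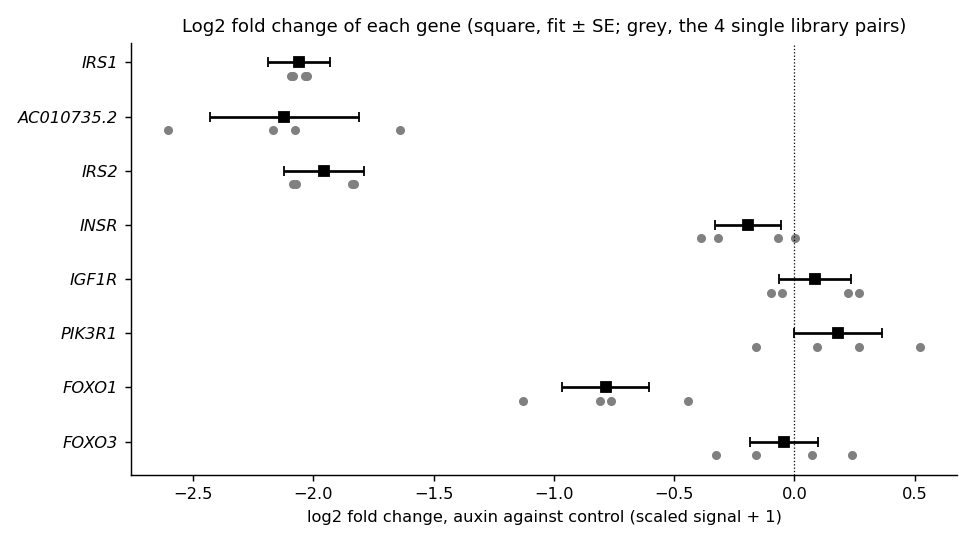
Log2 fold change of auxin against control for the 8 genes (horizontal axis, log2 of scaled signal plus 1), with squares and bars for the fitted value ± SE and grey points for the 4 single library pairs. IRS1, AC010735.2 and IRS2 lie near -2, FOXO1 at -0.79, and the pairs of the other 4 genes fall on both sides of 0.

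Levels of different genes can be compared per kb of span. In control, IRS1 was the highest of the 8 genes at 172 per kb, followed by FOXO3 at 138, IRS2 at 98.0, INSR at 55.1, FOXO1 at 34.7 and PIK3R1 at 26.6. AC010735.2, at 15.2, and IGF1R, at 13.7, were lowest, and their library values overlapped. With auxin the order was different: FOXO3 led at 135 per kb, followed by INSR at 47.9 and IRS1 at 41.3. PIK3R1, at 30.4, and IRS2, at 25.3, overlapped, and FOXO1, at 20.1, IGF1R, at 14.4, and AC010735.2, at 3.42, followed. IRS1 thus went from 2.76 and 3.59 times INSR in the control libraries to 0.844 and 0.880 times in the auxin libraries.

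Among the tested genes around IRS1, 0 were called by limma apart from AC010735.2, a member chosen on this same contrast. Within 1000 kb of the start of IRS1 the table lists 29 genes, of which 13 were tested and the rest were too low. The 7 protein-coding neighbours tested had log2 fold changes of -0.28 to 0.46, with 0 called and 0 at an unadjusted p under 0.05. The nearest, RHBDD1, a rhomboid-family protease gene starting 36.1 kb upstream of IRS1, had 5374 and 4960 in control and 4179 and 4307 in auxin. They did not overlap, and the log2 fold change was -0.28 with a 95% interval of -0.58 to 0.016 (adjusted p = 0.528 in limma). Per kb, IRS1 was 5.12 and 5.78 times RHBDD1 in control and 1.62 and 1.56 times in auxin.

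Beyond RHBDD1, the collagen genes COL4A4 and COL4A3 had log2 fold changes of 0.16 and 0.33. MFF, a mitochondrial fission factor gene, had -0.14, and TM4SF20 and AGFG1 had -0.021 and -0.060. SLC19A3, a thiamine transporter gene with a low signal of 28.4 to 56.4, had 0.46. On the other side of IRS1 no tested protein-coding gene lies within that distance. MIR5702, a microRNA gene 72.5 kb beyond the 3′ end of IRS1 with a low signal of 10.3 to 19.3, had 0.021. The lncRNA AC062015.1, 546 kb beyond the same end, had -0.64 with an adjusted p of 0.566 in limma.

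Around IRS2 the table lists 30 genes within 1000 kb, of which 15 were tested and 0 were called by limma. The 6 protein-coding neighbours tested had log2 fold changes of -0.27 to 0.51, with 0 called and 1 at an unadjusted p under 0.05. These were COL4A1 at -0.065, COL4A2 at 0.030, RAB20 at -0.27, NAXD at -0.020, CARS2 at -0.013 and ING1 at 0.51 (adjusted p = 0.283 in limma). Among the neighbours of other types, 2 had an unadjusted p under 0.05. The tested gene next to the 3′ end of IRS2, the lncRNA AL163541.1, lies 21.0 kb from it and had -0.17. IRS1 and IRS2 are each flanked by a pair of type IV collagen genes, and none of the 4 passed the threshold.

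**Figure D4:**
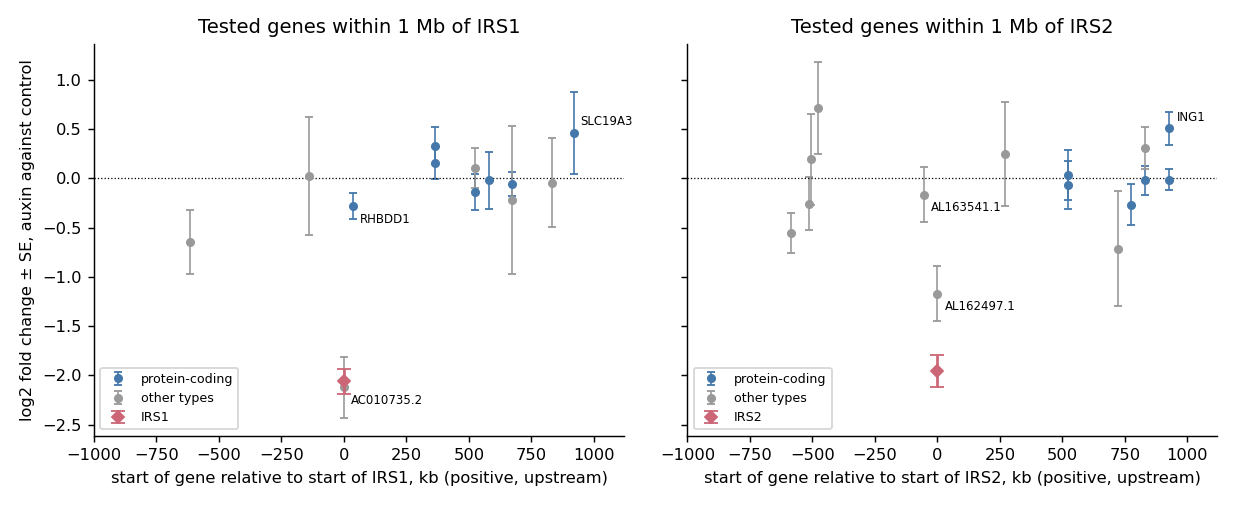
Log2 fold change ± SE (vertical axis, log2 of scaled signal plus 1) of the tested genes against the distance of their start from the start of IRS1 (left) or IRS2 (right), in kb. IRS1 and AC010735.2 lie near -2 and the protein-coding neighbours between -0.28 and 0.46, while IRS2 lies at -1.96 with its protein-coding neighbours between -0.27 and 0.51.

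The gene whose pattern over the 4 libraries was most like that of IRS1, out of 29157 candidates with a mean of at least 50, was IRS2. Likeness was the root-mean-square difference of log2 values centred on each gene's mean, and it was 0.0993 between these genes. Both were chosen on these same values, so their likeness is a description and no support for a link between them. Next to IRS1 were HS3ST1 (0.110), MKX (0.145), AP001924.1 (0.157) and AC006230.1 (0.181). HS3ST1, a heparan sulfate sulfotransferase gene, had 20717 and 24885 in control and 5624 and 6238 in auxin, a log2 fold change of -1.94. MKX, a homeobox gene, had 855 and 980 in control and 269 and 261 in auxin.

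AC010735.2 was number 11 in the order for IRS1, at 0.230. For IRS2 the closest genes were IRS1, MKX (0.128), AC006230.1 (0.155), HS3ST1 (0.165) and BDNF (0.205), a neurotrophin gene. HS3ST1 and AC006230.1 overlap each other on opposite strands of chromosome 4, so their values may not be independent. With 4 libraries, the measure mostly reflects the difference between the groups.

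Other genes of the pathway, from lists by role, rarely passed the threshold. With the members left out, 79 of 84 genes were tested by limma, 1 rose, 0 fell and 15 had an unadjusted p under 0.05. That is 1.27% called and 19.0% at the unadjusted threshold, against 0.696% and 10.1% of all genes tested. The listed genes are protein-coding, and all genes tested include other types. Among the 15994 tested protein-coding genes with a mean signal of at least 50, 2477 had an unadjusted p under 0.05. The median log2 fold change of the 79 was -0.030, against -0.013 over those protein-coding genes and 0.0087 over all genes tested. Of the 79, 36 were above 0.

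Among the other receptors and ligands, 4 of 5 were tested, 0 were called, 0 had an unadjusted p under 0.05 and the median was -0.058. INS, the insulin gene, was at 0 in all 4 libraries. INSRR, an orphan receptor related to INSR, had the smallest p, with 262 and 167 in control and 170 and 148 in auxin (log2 fold change -0.40, adjusted p = 0.743 in limma). Of the other substrates and adaptors, 13 of 14 were tested, 0 were called, 1 had an unadjusted p under 0.05 and the median was 0.077. That one was SOS1, which activates RAS downstream of GRB2, at 0.32 (adjusted p = 0.468 in limma).

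All 5 other class I PI3K subunit genes were tested, with 0 called, 1 at an unadjusted p under 0.05 and a median of -0.092. PIK3CB, the catalytic subunit p110-beta, had a log2 fold change of -0.34 (adjusted p = 0.30 in limma). Of the 18 genes of PDK1, AKT, TSC and mTOR, 0 were called, 3 had an unadjusted p under 0.05 and the median was -0.027. EIF4EBP1, a translation repressor that mTOR phosphorylates, had 6048 and 5607 in control and 3932 and 4158 in auxin, at -0.53 (adjusted p = 0.146 in limma).

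The 16 inhibitors of the pathway had the lowest median of the lists, -0.23, with 4 genes above 0, 0 called and 4 at an unadjusted p under 0.05. Both auxin libraries were below both controls for 8 of them and above for 1, against 19.6% and 18.6% of all genes tested. SOCS6, of the suppressor of cytokine signalling family, had 9351 and 12921 in control and 5835 and 6349 in auxin, a log2 fold change of -0.85 ± 0.16 (SE). Its adjusted p of 0.0504 in limma lay just past the threshold. It passed without control replicate 1, at -1.09, and without either auxin replicate, and without control replicate 2 it was -0.62 with an adjusted p of 0.213 in limma. TRIB3, which binds AKT and is induced by stress, was the 1 inhibitor gene above its controls in both auxin libraries, at 0.82 (adjusted p = 0.0852 in limma).

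The FOXO list holds 2 other factors, with 0 called and 0 at an unadjusted p under 0.05: FOXO4 had a log2 fold change of 0.11 and FOXO6 of 0.031. Of the FOXO target genes other than IRS2 and INSR, 17 of 20 were tested, 1 rose, 0 fell, 5 had an unadjusted p under 0.05, 11 were above 0 and the median was 0.21. Both auxin libraries were above both controls for 7 of the 17 and below for 4, against 18.6% and 19.6% of all genes tested. The list was written with earlier results of these data known. CDKN1B, the cyclin-dependent kinase inhibitor p27, had 942 and 867 in control and 1971 and 2038 in auxin, and its span contains another gene of the table, AC008115.3. The rise was 1.15 ± 0.16 (SE) on the log2 scale, with an adjusted p of 0.0148 in limma. The call was lost without control replicate 1 (adjusted p = 0.0543 in limma), without control replicate 2 (0.102) and on the values as deposited (0.736), with log2 fold changes of 1.09 to 1.21.

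IRS2, itself listed as a FOXO target, thus lay opposite in direction to CDKN1B. INSR, also on that list, had groups that overlapped. BCL2L11, the pro-apoptotic gene BIM and another listed target, had 5051 and 4212 in control and 2805 and 2688 in auxin, at -0.75 (adjusted p = 0.0661 in limma), and lies within the longer gene MIR4435-2HG on the opposite strand. The other 3 with an unadjusted p under 0.05 were the transcription factor gene KLF6 at 0.62, the sestrin gene SESN3 at 0.68 and the cyclin gene CCNG2 at 0.55, with adjusted p of 0.204, 0.33 and 0.414 in limma. Of the 7 IGF binding proteins, 6 were tested, 0 were called and 1 had an unadjusted p under 0.05. That one was IGFBP2, a secreted carrier of IGFs, at -0.69 (adjusted p = 0.0894 in limma).

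**Figure D5:**
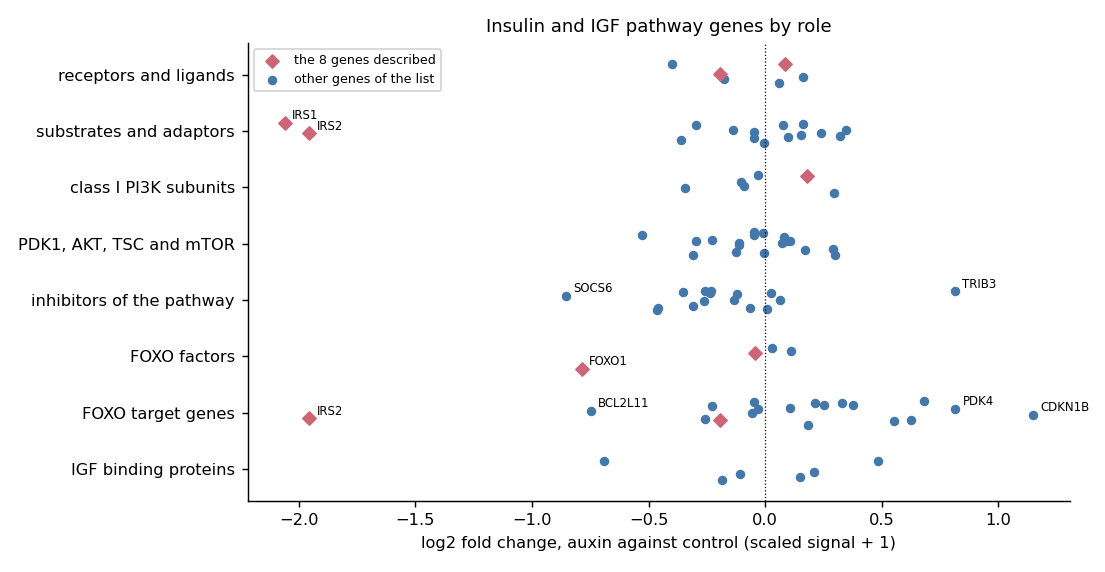
Log2 fold change of auxin against control (horizontal axis, log2 of scaled signal plus 1) of each tested gene of 8 role lists, with diamonds for genes described individually as members and circles for the others. IRS1 and IRS2 lie near -2, while the other listed genes lie between -0.85 and 1.15.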

How the data were processed

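The authors deposited 1 table with a signal per gene and library, spanning introns and exons. Each library's low values are whole multiples of 1 step (within 0.1 step, up to 20 steps), worth 0.847, 1.04, 0.728 and 1.36 in control 1, control 2, auxin 1 and auxin 2. Steps were not treated as reads, because only 2 to 8 genes of at least 10 kb held 1 step while 141 to 221 held 2, so no count model was used. The submitters' processing notes name Trimmomatic 0.39, Bowtie2 2.4.5, deepTools 3.5.1 and the builds hg38 and dm6. Per the labels' protocols, labelled fly S2 RNA was added and a directional kit used. How the columns were scaled is not given in the sources used here. Gene coordinates, including the other numeric column of gene length, are the deposited ones, and 99.8% of 37804 symbols overlapped RefSeq GRCh38. Starts in the deposited table count from 0 and are printed 1 higher.

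Scaling used trimmed means of M-values (30% and 5% trimmed), with factors 0.991, 1.02, 0.812 and 1.21. Genes reaching 10 in 2 or more libraries, with a total of 15 or more, were fitted as log2(scaled signal + 1) with lmFit and eBayes (trend) in limma 3.58.1 under R 4.3.3, with Benjamini-Hochberg adjustment and a threshold of 0.05. Fold changes of low genes are understated on that scale. With 2 libraries against 2, an exact permutation test of 1 gene cannot go below 0.333. Python 3.11.15, pandas 2.3.3 and matplotlib 3.10.9 served for tables and figures. The members, lists, markers and motifs were chosen with earlier results of these data known. Named genes were the members, RAD21, each list's called genes or that with the smallest p, called and protein-coding neighbours within 1000 kb, genes overlapping a member with at least 10% of its signal, and the 5 most alike to IRS1 and to IRS2. AL162497.1, AC010735.1, MIR5702, AC062015.1, AL163541.1, IRS4, INS, TRIB3, BCL2L11, KLF6, SESN3, CCNG2, FOXO6 and the cell type markers named singly were added after their values were seen. One control column with a misspelt name was taken as control replicate 2 from its number.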

Additional observations from a re-analysis of the deposited data

How the results depend on the processing

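Under 12 alternatives (scaling, pseudocount, filter, replicate block, each library left out), IRS1, AC010735.2, IRS2, FOXO1 and INSR were below 0 in 12 of 12, FOXO3 in 10, and IGF1R and PIK3R1 in 1 each. These genes were chosen on the same values, so this describes the settings and is no sign of stability. The log2 fold change of IRS1 moved by more than its replicate SD of 0.030 with scaling by library total, to -2.02, and that of IRS2 was -2.09 to -1.84 with each library left out in turn. Genes called numbered 274, against 55 on the values as deposited (47 shared), 4223 with a replicate block (all 274 kept) and 71 to 681 with each library left out in turn (129 without control replicate 1, 71 without control replicate 2, 681 without auxin replicate 1, 525 without auxin replicate 2). Other settings gave 195 to 300. The share lower was 54.0%, 47.2% with scaling by library total and 72.2% without auxin replicate 2. Listed pathway genes other than members called numbered 1, against 0 on the values as deposited, 2 with a pseudocount of 10, 19 with a replicate block and 0 to 4 with each library left out. FOXO1 and SOCS6 were called with the replicate block. With the replicate block, on the values as deposited and without either auxin replicate, each gene's variance came from the trend over all genes alone. The cause of the differences between settings was not tested. No label ties equal replicate numbers to a common day or culture, and replicate differences in the 2 groups correlated at r = 0.23 across 39358 genes, which are not independent. The planned edgeR and DESeq2 alternatives were not run, since the signal is not in reads. With no read depth given, precision rests on the spread between libraries. In the main fit, eBayes drew each gene's variance toward a trend over all genes. The printed SE values and intervals thus do not come from a gene's own 2 libraries a group alone.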
